A study of Mus musculus with 2 samples.

Results

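The genes described here are the 36 that lie around the HoxB cluster on mouse chromosome 11, chosen by their position and not by their level. They start between 95200000 and 97200000 in mm9, the build that the submitters' processing notes name, and leave out the Hoxb genes and genes whose names begin with Mrpl, Mrps, Atp5 or Cbx. The window held 50 of the 20207 genes in the authors' tables, of which 10 were Hoxb genes and 4 belonged to the families left out. With the cluster placed at chr11:96055675-96229567, 18 members lay on the Hoxb13 side, at lower coordinates, and 18 on the Hoxb1 side.

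RNA came from day 6 embryoid bodies, floating clumps of mouse embryonic stem cells that differentiate into early tissues. Cells in both libraries carried an inducible short hairpin RNA against HoxBlinc (label shHoxBlinc), and each library pooled the RNA of 2 hairpins. The hairpins were induced with doxycycline at 2 ug/ml from day 2 in 1 library and left uninduced in the other, so the comparison library carries the hairpin construct too. The growth protocol names the stem cell lines R1/E and CGR8 MHC-GFP without saying which gave each library, and cells given doxycycline without a hairpin were not analysed here. With 1 library per group no difference has a replicate check, no p-value is given, and what follows compares 2 libraries rather than 2 conditions.

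HoxB is one of the Hox clusters, rows of homeobox genes that pattern the body axis and that are switched on in order along the chromosome. HoxBlinc is a long noncoding RNA of that cluster that is known to bring Set1/MLL histone methyltransferases to the locus. Around the cluster lie unrelated genes, many of them used in most cells, that share the chromosome neighbourhood and not a pathway. Several have relatives beside the other Hox clusters, since the clusters and their surroundings arose by duplication of a chromosome segment. Their levels bear on whether a difference at HoxB extends along the chromosome.

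The uninduced library held 37046449 gene counts over 17914 genes and the induced library 24924921 over 15764. The level of HoxBlinc was not analysed here and gives no check of the labels. Together the 10 Hoxb genes had 263 counts without and 18 with doxycycline. Counts are given below as CPM, counts scaled by the summed gene count of the library, and RPKM is the authors' level per gene length. A gene is called measured where its RPKM was at least 1 in the higher library. Intervals of folds are exact and cover counting error only, and since genes with exactly 2 counts outnumbered genes with 1 (846 to 583 without and 603 to 296 with doxycycline), both mates of a fragment were probably counted and the intervals are too narrow. Summed levels of the 6 markers of pluripotent cells were 150.6 RPKM without and 103.5 with doxycycline, and 1 of them, Dppa4, was at least 2-fold lower. Summed levels of endothelial markers were 12.4 without and 1.82 RPKM with doxycycline, of primitive red cell markers 38.3 and 0.490, of fibroblast markers, the cells of the feeder layer, 93.3 and 50.3, and of white cell markers 2.58 and 2.93. Most of the fibroblast sum was Col1a2 (51.5 and 29.9 RPKM) and Col1a1 (26.2 and 16.0), neither 2-fold lower. Fap (1 and 0 counts), Dcn (1 and 2) and Lum (6 and 2) were near absent in both libraries, so the sum does not by itself show feeder cells. At least 2-fold lower with doxycycline were all 5 measured endothelial markers, all 3 measured red cell markers and 4 of 6 measured fibroblast markers. The count was 0 of 1 for white cell markers, and the share of all measured genes was 2.64%. Tek, Tie1, Kdr, Esam, Hbb-bh1, Hba-x, Alas2 and Pdgfrb were under 1 RPKM with doxycycline. They counted as measured only through the uninduced library, which favours this outcome. The part of these cell types in the results below was not tested, and fewer cells of a type cannot be told apart from less RNA per cell in such libraries.

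The neighbourhood mixes genes with and without the CG-rich start regions that are typical of genes used in most cells. Sequences upstream of the start were taken from RefSeq in build GRCm38.p6, whose coordinates differ from those of mm9, for the 23 members that matched by symbol. Members not matched included Abi3, Atad4, Calcoco2, Gm10039, Gngt2, Igf2bp1, Lrrc46, Nxph3, Scrn2, Skap1, Snf8 and Sp6. The motif searched was CG, which reads the same on both strands, in the 250 bases before the most upstream start. The 16 measured members with an entry held a median of 17 CG (4 to 35), and the 7 members under 1 RPKM a median of 7 (1 to 34). Over 27025 genes the median was 6. At least 10 CG were found in 12 of the 16 measured and 3 of the 7 low members, and in 38.2% of all genes with an entry. That share was not limited to measured genes, so it is not a like background for the measured members. Low members with many CG were Phospho1 with 34, Ngfr with 16 and Tbx21 with 16.

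The upstream bases of 6 members show this range, with every CG in capitals and all other bases in lower case, read 5′ to 3′ toward the gene. Ttll6 and Gip are low genes close to the cluster. Ube2z, at 129 kb, and Snx11, at 399 kb, are the nearest measured members with an entry on their sides. Kpnb1 had the highest level and Npepps the highest ratio with doxycycline of the measured members.
Ttll6, chr11:96133536-96133785, plus strand: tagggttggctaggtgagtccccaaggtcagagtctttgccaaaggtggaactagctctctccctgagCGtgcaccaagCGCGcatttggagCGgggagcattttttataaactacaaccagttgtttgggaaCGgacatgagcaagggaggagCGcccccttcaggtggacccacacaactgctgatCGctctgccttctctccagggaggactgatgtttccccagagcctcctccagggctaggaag
Gip, chr11:96024295-96024544, plus strand: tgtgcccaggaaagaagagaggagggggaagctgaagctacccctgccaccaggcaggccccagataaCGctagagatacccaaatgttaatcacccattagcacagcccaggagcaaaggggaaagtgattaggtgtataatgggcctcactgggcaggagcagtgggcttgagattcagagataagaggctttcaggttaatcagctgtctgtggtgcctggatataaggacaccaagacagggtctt
Ube2z, chr11:96065365-96065614, minus strand: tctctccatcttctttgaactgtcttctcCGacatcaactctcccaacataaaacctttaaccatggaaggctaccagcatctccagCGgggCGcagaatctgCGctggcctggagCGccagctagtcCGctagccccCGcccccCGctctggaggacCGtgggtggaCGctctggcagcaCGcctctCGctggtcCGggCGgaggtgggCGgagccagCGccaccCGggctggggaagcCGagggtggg
Snx11, chr11:96777556-96777805, minus strand: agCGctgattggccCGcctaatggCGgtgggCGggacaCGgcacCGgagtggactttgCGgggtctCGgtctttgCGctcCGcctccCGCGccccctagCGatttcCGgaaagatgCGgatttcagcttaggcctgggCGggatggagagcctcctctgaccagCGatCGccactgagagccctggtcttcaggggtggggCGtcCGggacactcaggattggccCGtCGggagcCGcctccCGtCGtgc
Kpnb1, chr11:97187893-97188142, minus strand: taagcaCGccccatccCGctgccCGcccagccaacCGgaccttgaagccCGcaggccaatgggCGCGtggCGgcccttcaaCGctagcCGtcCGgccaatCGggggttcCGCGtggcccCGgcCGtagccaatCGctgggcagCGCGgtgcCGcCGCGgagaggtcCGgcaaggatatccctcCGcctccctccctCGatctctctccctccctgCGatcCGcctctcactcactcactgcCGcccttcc
Npepps, chr11:97280577-97280826, minus strand: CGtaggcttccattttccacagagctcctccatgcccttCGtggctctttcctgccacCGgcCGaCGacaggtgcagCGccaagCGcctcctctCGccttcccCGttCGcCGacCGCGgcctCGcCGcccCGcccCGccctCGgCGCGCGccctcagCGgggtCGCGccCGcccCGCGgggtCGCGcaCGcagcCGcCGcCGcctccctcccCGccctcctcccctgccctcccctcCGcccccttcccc
The Gip sequence held 1 CG and that of Ttll6 7, which 91.7% and 46.6% of all genes reach. Ube2z held 18, Snx11 25, Kpnb1 28 and Npepps 35, and 21.6%, 10.3%, 7.26% and 2.77% of all genes hold as many.

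Most genes around HoxB had about the same level in both libraries. Of the 36 members 24 were measured, 12 were below 1 RPKM and 35 had reads in each library. Levels of the measured members ran from 1.21 to 116 RPKM without and from 0.759 to 93.1 RPKM with doxycycline. On the scale of log2(RPKM + 0.5), which understates differences of low genes, 1 of 24 measured members was at least 2-fold lower with doxycycline and 0 were higher. The share of all 11063 measured genes past the same fold was 2.64% lower and 0.262% higher, so 1 of 24, or 4.17%, is near the background. In CPM 2 of the 24 were at least 1.5-fold lower, 8.33% against 7.13% of all measured genes, and 0 were 1.5-fold higher, against 2.85%. These 2, Calcoco2 and Gngt2, were under 1 RPKM with doxycycline (0.937 and 0.759). They thus counted as measured only through the uninduced library, a filter that favours lower genes here as among all genes. The other 22 measured members lay between 1.34-fold lower and 1.25-fold higher in CPM.

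**Figure D1:**
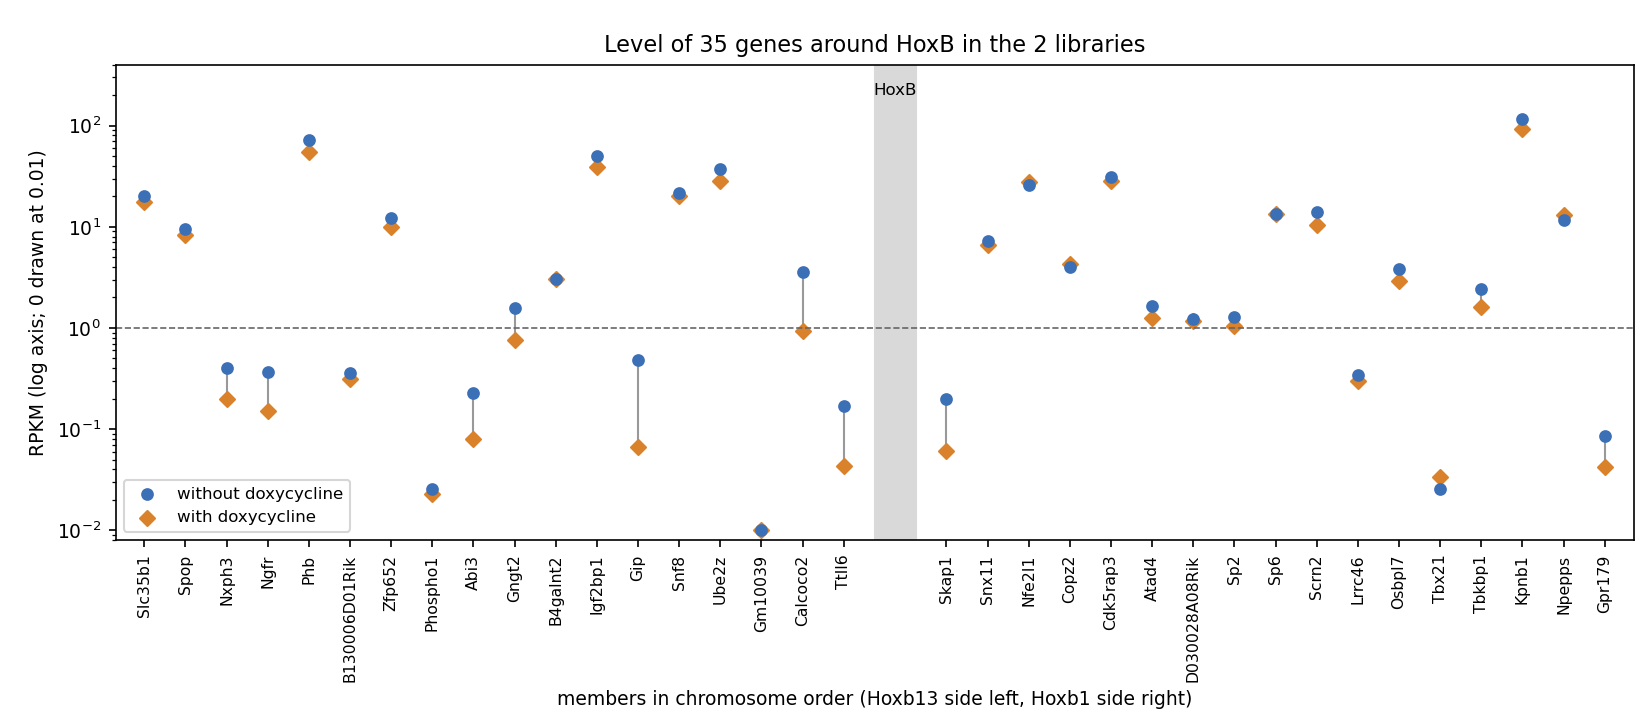
RPKM of 35 of the 36 members (log axis) without (circles) and with doxycycline (diamonds), 1 library each, in chromosome order with the HoxB cluster in grey; the dashed line marks 1 RPKM. Points of most measured members nearly coincide, while Calcoco2 drops from 3.58 to 0.937 RPKM and several low genes are lower with doxycycline.

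The median log2 ratio with over without doxycycline was -0.24 for the 24 measured members, against -0.18 for all measured genes. In CPM, on which the median of all measured genes was -0.03, it was -0.12. Ratios below the median of all genes were found in 13 of the 24. Exact intervals of the CPM fold lay on the lower side for 11 members (45.8%, against 36.8% of all measured genes) and on the higher side for 3 (12.5%, against 28.6%), and 10 included 1. With all counts halved these numbers were 7, 3 and 14. They depend on how the libraries are scaled. With edgeR's TMM 9 members lay on the lower side (37.5%, against 28.8% of all measured genes) and 7 on the higher side (29.2%, against 37.2%), and the median count ratio gave the same 9 and 7. The members that lay on the higher side under both of these and not in CPM were Copz2, Cdk5rap3, Snf8 and B4galnt2, and Zfp652 no longer lay on the lower side. With the scaling implied by RPKM 14 lay on the lower side (58.3%, against 60.4%) and 2 on the higher side (8.33%, against 12.2%), and Cdk5rap3, Spop and Slc35b1 were then among the lower.

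The clearest difference was that of Calcoco2, the second nearest member, 82.4 kb from the cluster on the Hoxb13 side. Calcoco2 (chr11:95960640-95973276) is related to human NDP52, an autophagy receptor that links bacteria and damaged mitochondria to the autophagy machinery. It had 3.58 RPKM and 309 counts without doxycycline and 0.937 RPKM and 61 counts with it. In CPM it was 3.41-fold lower with doxycycline (exact 95% interval 2.58 to 4.56), and with all counts halved the interval was 2.32 to 5.29. On the log2(RPKM + 0.5) scale its ratio was -1.51, which 94 of the 11063 measured genes reached or passed, Calcoco2 among them. Without Calcoco2 the median of the other measured members was -0.20.

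The members on either side of Calcoco2 differed in level and in fold. Ttll6 (chr11:95995533-96026765), a tubulin polyglutamylase of cilia and the nearest member at 28.9 kb, had 0.169 RPKM and 36 counts without and 0.0434 RPKM and 7 counts with doxycycline. It was 3.46-fold lower in CPM (1.52 to 9.21). Gm10039, a pseudogene in RefSeq that overlaps Atp5g1 in the authors' tables, had 0 counts in both libraries. Ube2z, a ubiquitin-conjugating enzyme, 129 kb from the cluster, was among the 4 members with the highest level. It had 37.1 RPKM without and 28.5 RPKM with doxycycline and was 1.16-fold lower in CPM (1.12 to 1.20). Snf8, a subunit of the ESCRT-II complex that sorts membrane proteins for breakdown, had 21.6 and 20.4 RPKM, and the interval of its fold lower, 0.866 to 1.03, included 1. Gip, the gut hormone that raises insulin after a meal, had 19 counts without and 2 with doxycycline (0.478 and 0.0667 RPKM). Its fold of 6.39 was the highest of the members, with an interval of 1.54 to 56.6 that ran from 0.839 to 265 with all counts halved. Ttll6, Calcoco2 and Gip were thus lower, while the strongly used Ube2z and Snf8 between them differed by at most 1.16-fold.

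On the Hoxb1 side the nearest member was Skap1 (chr11:96325938-96620936), an adaptor of T cell receptor signalling, 96.4 kb away. It had 0.197 RPKM and 26 counts without and 0.0602 RPKM and 6 counts with doxycycline, 2.92-fold lower (1.17 to 8.66), and with all counts halved the interval (0.801 to 16.0) included 1. The next 5 members were all measured and lay close to equal. Snx11, a sorting nexin of endosomes, had 7.17 without and 6.55 RPKM with doxycycline, a fold lower of 0.976 (0.889 to 1.07). Nfe2l1, a membrane-bound factor that induces proteasome genes, had 25.9 and 27.6 RPKM and was 1.21-fold higher in CPM (1.16 to 1.25). Copz2, a subunit of the COPI vesicle coat, had 3.99 and 4.26 RPKM and was not distinguishable within counting error in CPM (0.684 to 1.02), though its interval was 0.655 to 0.976 with TMM. The interval in CPM also included 1 for Cdk5rap3, which acts in modification of proteins by Ufm1, with 31.4 and 28.3 RPKM (0.940 to 1.04, and 0.900 to 0.998 with TMM), and for Atad4, with 1.65 and 1.25 RPKM (0.885 to 1.57).

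The 3 nearest members, Ttll6, Calcoco2 and Skap1, were thus 2.92-fold to 3.46-fold lower in CPM, and of the other 32 members with reads 1, Gip, had a fold as high as the lowest of these. This grouping was chosen after the values were seen, and 2 of the 3, Ttll6 and Skap1, were below 1 RPKM. Low genes passed 2-fold often. Among all 2585 genes under 1 RPKM with at least 20 counts in either library, 27.0% were at least 2-fold lower in CPM. The share of all genes past 2.92-fold is not given, and whether nearness sets these 3 members apart was not tested. Gip, Abi3 and Ngfr, also under 1 RPKM, were the 3 of the other 32 members with reads that were at least 2-fold lower. The Hoxb genes as a sum were 9.83-fold lower (6.10 to 16.8), an interval that overlaps those of Ttll6, Skap1 and Gip. The sum was not tried with halved counts, so no separation from Calcoco2 is read from these intervals.

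**Figure D2:**
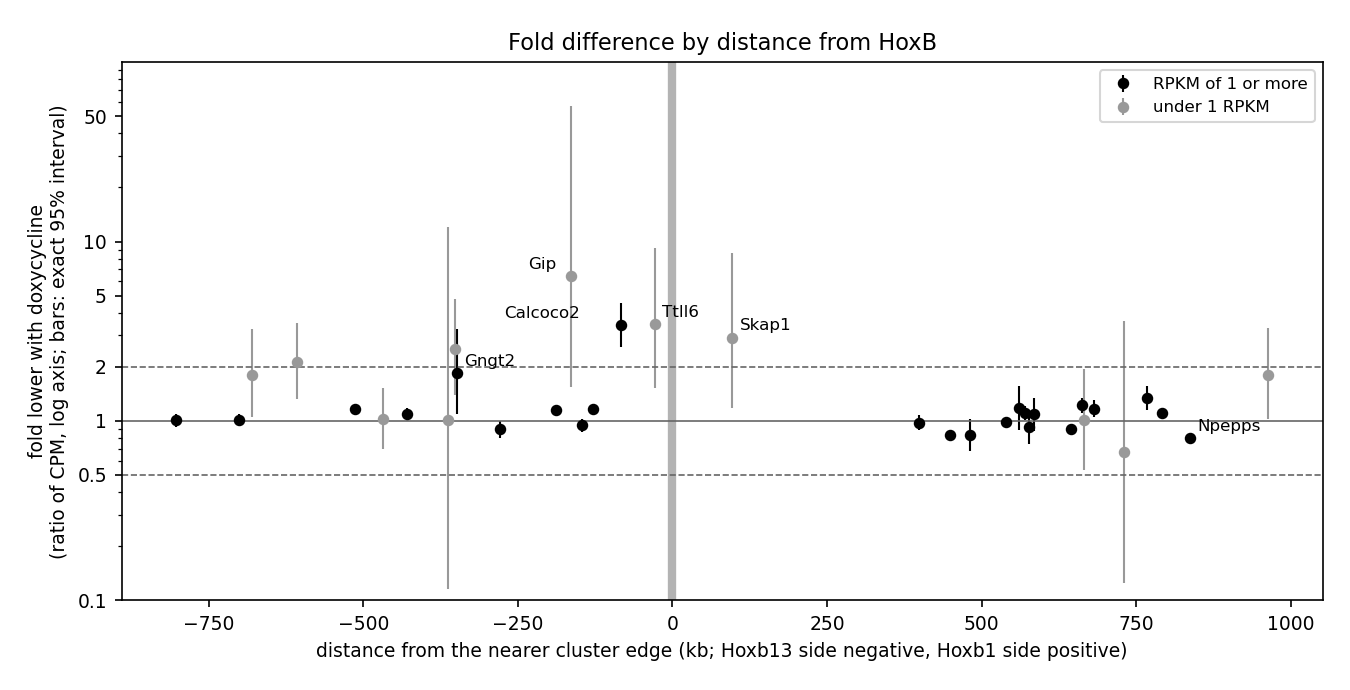
Fold lower with doxycycline in CPM (log axis, exact 95% interval of counting error, 1 library per group) of the 35 members with reads, against distance from the nearer edge of the cluster in kb; black points are measured members and grey points members under 1 RPKM, and dashed lines mark 2-fold. Folds of at least 2 are those of Calcoco2 and of members under 1 RPKM: Ttll6, Skap1, Gip, Abi3 and, 607 kb away, Ngfr. Measured members other than Calcoco2 and Gngt2 lie between 0.800 and 1.34.

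Distance by itself did not order the measured members. The Spearman correlation of distance and log2 ratio over the 24 measured members was 0.13, a description over genes that share the same 2 libraries. The 4 measured members within 250 kb had a median log2 ratio of -0.37, and -0.35 without Calcoco2. The median was -0.06 for the 6 members between 250 and 500 kb and -0.25 for the 14 beyond. The 10 measured members of the Hoxb13 side had a median of -0.32 (range -1.51 to -0.01), and the 14 of the Hoxb1 side -0.17 (-0.47 to 0.15). Without Calcoco2 the Hoxb13 side was at -0.28. Set against the median of all genes, the Hoxb1 side was at 0.01 and the bin of 250 to 500 kb at 0.12, so these lay at or above the typical gene. Measured genes made up 10 of 18 members on the Hoxb13 side and 14 of 18 on the Hoxb1 side.

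Genes under 1 RPKM need a comparison with the reads that any unused gene receives. Odorant, vomeronasal and trace amine receptor genes belong to sensory neurons. Of these 1246 genes 659 had reads without doxycycline and 74 with it, at a mean of 0.0260 and 0.00692 RPKM. Their 95th percentile was 0.0861 RPKM without and 0.0200 RPKM with doxycycline. Of the 12 low members 8 lay above it without and 11 with doxycycline. Gm10039, Phospho1, a phosphatase of bone mineralisation, Tbx21, the T-bet factor of T cells, and Gpr179, an orphan receptor of the retina, did not without doxycycline. With doxycycline few receptor genes had reads, and 2 counts were enough to pass the percentile, as for Phospho1 and Gip. Passing it in that library therefore does not set a low member apart from background. The receptor genes as a sum were themselves 2.22-fold lower with doxycycline in CPM (2.06 to 2.40), and their mean RPKM was 3.75-fold lower. By RPKM Ttll6 was 3.88-fold and Skap1 3.27-fold lower. The part of this shared low-level difference in the folds of Ttll6, Skap1 and the other low members was not tested.

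Among members under 1 RPKM, 8 had at least 20 counts in either library. All 8 were lower in CPM with doxycycline, as were 70.7% of such genes of the whole table. Ttll6, Skap1, Abi3, Nxph3, Gpr179 and Lrrc46 reached 20 counts only without doxycycline, in the deeper library. The filter thus favours genes that are lower with doxycycline, here as in the whole table. With TMM or the median count ratio 6 of the 8 were lower, and B130006D01Rik and Lrrc46, whose folds in CPM were close to 1, were not. At least 2-fold lower were 4 of the 8 (50.0%), against 27.0% of the 2585 such genes, of which 3.02% were 2-fold higher. Ttll6 and Skap1 are given above. Abi3, a regulator of actin assembly used in microglia, had 0.226 without and 0.0804 RPKM with doxycycline and was 2.51-fold lower (1.40 to 4.78), though it overlaps Phospho1 in the tables and shared reads cannot be assigned. Ngfr, the p75 neurotrophin receptor that marks neural crest, had 0.365 and 0.153 RPKM and was 2.13-fold lower (1.33 to 3.53). Nxph3, a secreted ligand of alpha neurexins, was 1.81-fold lower (1.05 to 3.24) and Gpr179 1.79-fold (1.03 to 3.28). With all counts halved the intervals of Nxph3 (0.844 to 4.55) and Gpr179 (0.805 to 4.39) included 1. The noncoding RNA B130006D01Rik had 70 and 46 counts, a fold of 1.02 (0.696 to 1.52). Lrrc46, a leucine-rich repeat protein, had 27 and 18 counts, a fold of 1.01 (0.536 to 1.95). Phospho1, with 3 and 2 counts, and Tbx21, with 4 in both, were at or near the floor of 3 counts.

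By role, the members that act in transcription or on RNA differed little. Of 6 in that list 5 were measured, with 0 past 2-fold and a median log2 ratio of -0.20. For this and the other roles, the share of all measured genes past 2-fold was 2.64% lower and 0.262% higher. Igf2bp1, an RNA-binding protein of embryonic cells that protects target mRNAs, had 50.1 RPKM without and 39.1 with doxycycline, 1.14-fold lower in CPM (1.12 to 1.17). Zfp652, a zinc finger repressor, had 12.1 and 9.91 RPKM (1.09-fold lower, 1.02 to 1.17), with an interval that included 1 with all counts halved (0.987 to 1.21) and with TMM (0.973 to 1.12). Sp6, a zinc finger factor of tooth and skin epithelium, had 13.4 and 13.3 RPKM and was 1.11-fold higher in CPM (1.05 to 1.18), while its ratio of RPKM was on the lower side at 1.01-fold. Sp2, a relative that binds promoters of many cell types, had 1.29 and 1.06 RPKM, with an interval that included 1 (0.881 to 1.34). Its gene overlaps the noncoding RNA D030028A08Rik, which had 1.21 and 1.17 RPKM (0.745 to 1.15).

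Genes of protein breakdown, sorting and transport were all measured, and Calcoco2 was the 1 of 9 past 2-fold (median log2 ratio -0.17). That is 11.1%, against 2.64% of all measured genes, and rests on 1 gene, so it is not read as a trait of the role. Kpnb1, importin beta, which carries proteins into the nucleus, had the highest level of all members, 116 RPKM without and 93.1 with doxycycline, and was 1.11-fold lower in CPM (1.09 to 1.13). Npepps, the puromycin-sensitive aminopeptidase, had 11.7 and 13.03 RPKM, the highest ratio of the measured members, and was 1.25-fold higher in CPM (1.18 to 1.32). Spop, the substrate adaptor of a cullin ubiquitin ligase, had 9.51 and 8.38 RPKM, with an interval of 0.938 to 1.09. Osbpl7, an oxysterol-binding protein, had 3.82 and 2.91 RPKM and was 1.17-fold lower (1.05 to 1.31), with an interval that included 1 once all counts were halved (0.997 to 1.38).

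Receptors, hormones and signalling genes were mostly low, with 2 of 7 measured and 0 of the 2 past 2-fold in log2(RPKM + 0.5). Gngt2, the gamma subunit of cone transducin, had 1.57 RPKM and 55 counts without and 0.759 RPKM and 20 counts with doxycycline. It was 1.85-fold lower in CPM (1.09 to 3.26), and with all counts halved the interval (0.852 to 4.21) included 1. Tbkbp1, an adaptor of the kinase Tbk1 in innate immune signalling, had 2.43 and 1.61 RPKM and was 1.34-fold lower (1.15 to 1.57). The other 5 were low genes given above, at 0.478 RPKM or less. Skap1 and Tbx21 are used in T cells, and 7 white cell markers were in the tables. Of these Cd3g and Cd4 had 0 counts without and Cd3e and Cd3g 0 with doxycycline, and Ptprc, the common white cell antigen, had 3 and 1 counts. Lck, a kinase of T cell receptor signalling, was the 1 measured marker, with 1.94 RPKM and 247 counts without and 2.55 RPKM and 244 counts with doxycycline. Cd8a had 21 and 23 counts, and Csf1r, a receptor of macrophages, 120 and 34.

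Of the 10 enzymes and other members of known function 7 were measured. Like most measured genes these differed little, with 0 past 2-fold (median log2 ratio -0.29). Ttll6, in the same list, was under 1 RPKM. Phb, prohibitin of the inner mitochondrial membrane, had 71.8 RPKM without and 54.7 with doxycycline, 1.17-fold lower in CPM (1.13 to 1.21). Scrn2, a secernin, had 14.2 and 10.3 RPKM and was 1.22-fold lower (1.11 to 1.34). B4galnt2, a glycosyltransferase that makes a blood group sugar, had 3.04 and 3.02 RPKM (fold 0.898, 0.805 to 1.00). Slc35b1, a transporter of the endoplasmic reticulum, had 20.1 and 17.8 RPKM (fold 1.01, 0.928 to 1.09). Folds of this size change with the scaling of the libraries, whose size ratio was 1.49 by summed counts and 1.33 as implied by RPKM.

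Genes around the other Hox clusters, taken at the same distances and by the same exclusions, had medians close to those around HoxB. The median log2 ratio was -0.12 over 7 measured genes beside HoxA, -0.18 over 27 beside HoxC and -0.17 over 5 beside HoxD, against -0.24 over the 24 beside HoxB. At least 2-fold lower were 0 of 7, 1 of 27 and 0 of 5, against 1 of 24, and 0 were higher in each. Over the 878 measured genes on the rest of chromosome 11 the median was -0.21, with 24 at least 2-fold lower and 2 higher. No test separates these sets, since each gene has 1 library per group.

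**Figure D3:**
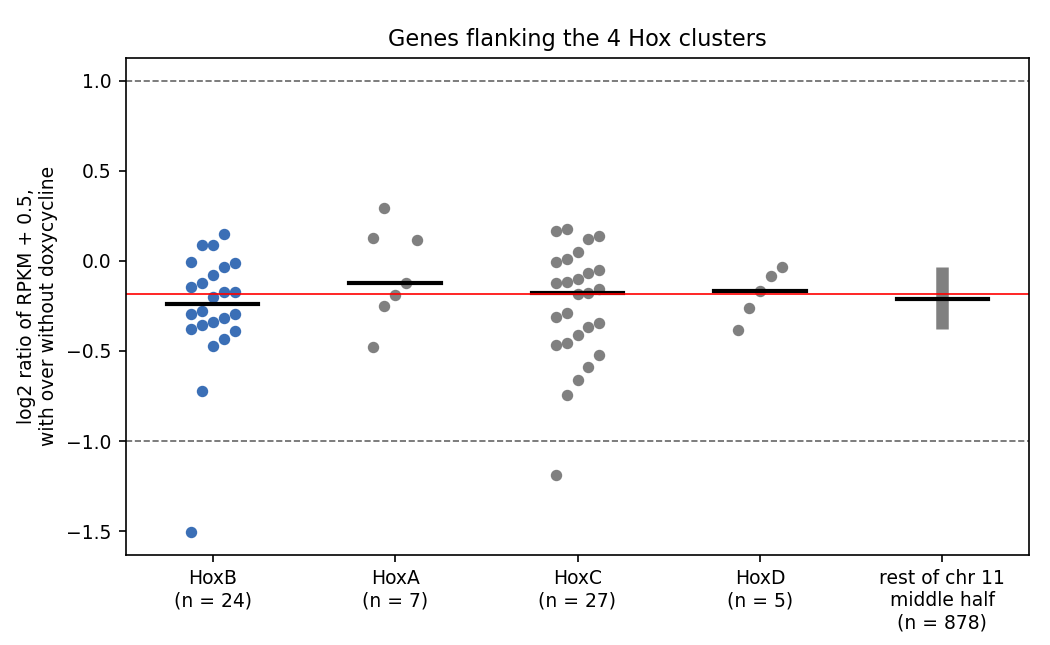
Log2 ratio of RPKM + 0.5, with over without doxycycline, of each measured gene flanking the HoxB, HoxA, HoxC and HoxD clusters (points; black bars, medians), and for the rest of chromosome 11 the span between the quartiles (grey) with its median; the red line is the median of all measured genes, -0.18, and dashed lines mark 2-fold. Most points of every cluster lie within 2-fold. Calcoco2 at -1.51 is the lowest on this scale, which understates differences of low genes such as Igfbp6 beside HoxC, at -1.19.

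Relatives of the neighbours allow a comparison within gene families; this list was made after the values were seen. The relatives of Calcoco2 did not share its difference in size. Calcoco1, 199 kb from HoxC, had 22.7 RPKM without and 18.5 with doxycycline, 1.09-fold lower in CPM (1.04 to 1.15). Tax1bp1, another autophagy receptor of that family, 453 kb from HoxA, had 47.8 and 43.8 RPKM, a fold of 0.973 (0.941 to 1.01). Of the family, Calcoco2 had the lowest level in both libraries and its interval did not overlap those of the relatives.

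Skap2, 143 kb from HoxA, had 8.33 RPKM without and 10.3 with doxycycline and was 1.39-fold higher (1.26 to 1.53), where Skap1 was lower. Snx10, 565 kb from HoxA, was 1.22-fold higher (1.12 to 1.33) and Snx11 close to equal. Among relatives of Nfe2l1, Nfe2l2 near HoxD, the regulator of antioxidant genes, had 18.4 and 18.0 RPKM. It was 1.09-fold higher in CPM (1.03 to 1.16), while its ratio of RPKM was on the lower side. Nfe2l3 near HoxA had 2.27 and 1.92 RPKM, with an interval in CPM that included 1 (0.887 to 1.25). Nfe2, the erythroid member of that family, 211 kb from HoxC, had 0.411 and 0.0908 RPKM and 42 and 7 counts, 4.04-fold lower (1.80 to 10.7). Copz1 near HoxC had 34.2 and 31.3 RPKM against 3.99 and 4.26 for Copz2, and neither differed beyond counting error in CPM. Sp1 near HoxC had 14.7 and 13.5 RPKM, a fold of 0.972 (0.937 to 1.01), where Sp2 was likewise within counting error.

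**Figure D4:**
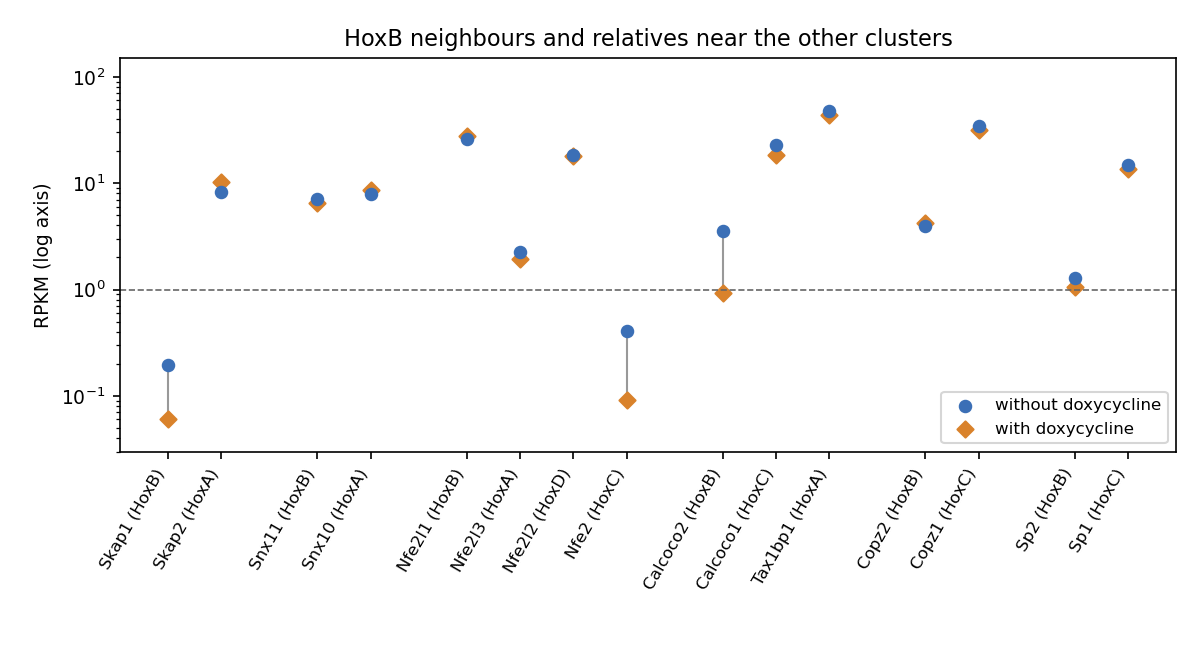
RPKM (log axis) without (circles) and with doxycycline (diamonds), 1 library each, of HoxB neighbours and of their relatives near the Hox cluster named in brackets; the dashed line marks 1 RPKM. Calcoco2, Skap1 and Nfe2 are lower with doxycycline, and the points of the other genes lie close together.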

How the data were processed

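Paired-end reads were made from total RNA, per the labels' protocols. The submitters' processing notes name Bowtie2 and mm9. The gene annotation and the counting program were not given in the sources used here. The same holds for strandedness, and reads that overlapping or antisense genes share cannot be told apart. The authors gave each gene an RPKM, an estimated count, written with 4 significant digits, and an RMS-normalized RPKM, a ratio with the library's root mean square RPKM as divisor, per the file headers.

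Library tables were joined by gene name. The coordinates of 237 genes differed between them, of which 0 were members, and the deposited merged table of RPKM, joined by row, differed at 140 genes, of which 0 were members. Log2 ratios used RPKM + 0.5 for genes at or above 1 RPKM in either library. Folds were ratios of CPM with exact conditional (Clopper-Pearson) 95% intervals on rounded counts, for counting error only, and a floor of 3 counts stood at 0.0810 CPM without and 0.120 CPM with doxycycline. For chemosensory genes the mean RPKM stands in for counts per length. CPM depends on the scaling: the ratio of library sizes, without over with doxycycline, was 1.49 by summed counts, 1.55 by the median count ratio, 1.55 by edgeR's TMM and 1.33 as implied by RPKM.

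Members and lists were chosen with earlier results of these data known. Members were named by nearness (6 on each side), a CPM fold of at least 1.5, the 4 highest levels, and 20 counts for members under 1 RPKM; other members were named in addition, and 1 is not reported here singly, though counts and medians include it. In the role lists 32 members were placed and 4 were in none; Atad4 stood for Prr15l, its present name in RefSeq. Folds and intervals were checked on simulated counts. Python 3.11.15, pandas 2.3.3, SciPy 1.17.1, R 4.3.3 and edgeR 4.0.16 were used.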

Additional observations from a re-analysis of the deposited data

How the results depend on the processing

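No paired analysis was possible because each group held 1 library, and for the same reason no library could be left out. Settings tried were pseudocounts of 0.1 and 1, no filter, the merged table, the Mrp, Atp5 and Cbx genes kept, and members with equal coordinates. Under these the medians of the members, their sides and distance bins, where tried, kept their direction, and the counts past 2-fold stayed the same. With the Mrp, Atp5 and Cbx genes kept, the median was -0.19. Relative to all measured genes that is -0.0037, so the members then lay at the typical gene. Scaling moved the medians. Relative to all measured genes the median of the members was -0.057 and those of the Hoxb1 side (0.0094), the bin of 250 to 500 kb (0.12) and the flanks of HoxA (0.058), HoxC (0.0033) and HoxD (0.016) turned positive. In CPM with a pseudocount of 0.5 the bin of 250 to 500 kb was at 0.093, HoxA at 0.039, HoxC at -0.040 and HoxD at -0.025. On RMS-normalized RPKM the members were at -0.44, the Hoxb1 side at -0.37 and the bin beyond 500 kb at -0.44. Within 0.5 Mb of the cluster the 3 measured members of the Hoxb1 side had a median of 0.085. With a minimum RPKM of 5 the count of members at least 2-fold lower was 0, since Calcoco2 was left out.

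Calcoco2 was between 3.26-fold and 3.82-fold lower under the median count ratio, TMM and RPKM scalings and with halved counts, and 4.50-fold lower on RMS-normalized RPKM, which was added after the values were seen, like the calls over all genes under other scalings. With all counts halved 7 measured members had an interval on the lower side, and 7 had one on the higher side under both the median count ratio and TMM scalings. Sp6 turned to 1.01-fold lower by RPKM. The trimmed mean of chemosensory genes was 0.0169 RPKM without and 0 with doxycycline. Of low members, 5 of 9 were at least 2-fold lower with a minimum of 20 summed counts, and 4 of 8 with all counts halved, both chosen after the values were seen. Depth limits the members under 1 RPKM, which rest on 70 counts or fewer except Ngfr with 76.0.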
